A study of Mus musculus with 18 samples.

Results

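The genes described here make cholesterol and move it between membranes and cells, and they were read in 3 brain regions of mice given MPTP or saline. They were named as a list of 32 genes, made up of 18 synthesis enzymes, 5 regulators of the SREBP pathway and 9 genes of sterol transport and turnover, and each was read from its probe set of highest mean over all arrays. Of the 32, 30 were on the array among 18194 genes, and 29 were bright enough to be tested among 11741 genes. All 17 enzymes on the array and all 5 regulators were tested, and so were 7 of the 8 transport and turnover genes on it. The exception was Nr1h3, which encodes a nuclear receptor for oxysterols and averaged 4.56 on the log2 scale, below the filter value of 5.18. The enzyme gene Acat2 and the receptor gene Nr1h2 were not analysed here.

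The MPTP group received 30 mg/kg of the toxin by intraperitoneal injection on each of 5 days, and the saline group received saline by the same route. MPTP is turned in the brain into a compound that dopaminergic neurons take up. All animals were C57BL/6J males aged 14 weeks, and they were killed 4 days after dosing ended. Each of the 3 regions (frontal cortex, striatum, midbrain) was read on 3 MPTP and 3 saline arrays, 18 in all. With only 3 arrays in a group, the precision of each value is limited by their number. P-values set each difference against the spread between arrays within groups, pooled over all groups.

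The brain makes nearly all of its own cholesterol, because lipoproteins of the blood do not cross the blood-brain barrier. The synthesis enzymes are switched on together by SREBP transcription factors, which Scap carries out of the endoplasmic reticulum when sterols are low and Insig proteins hold back when sterols are high. Cholesterol leaves cells through transporters such as Abca1, which load it onto apolipoprotein E, and neurons dispose of it as 24S-hydroxycholesterol, made by Cyp46a1. Oligodendrocytes need large amounts of it for myelin, and astrocytes supply it to neurons.

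The regulatory sequence in front of the members is shown because SREBPs act there, usually next to the factor NF-Y, which binds CCAAT boxes. The RefSeq table of GRCm38.p6 promoters, which runs from 250 bases before to 50 bases after each start, held 26 of the 32 genes. At least 1 CCAAT, read on either strand, stood in the promoter of 14 of 15 enzymes (93.3%), 4 of 5 SREBP regulators and 2 of 6 transport and turnover genes. A CCAAT stood in 41.1% of the promoters of all 27025 genes listed, and in 42.8% of those of the 9494 tested genes listed. The sterol regulatory element core TCACNCCA, on either strand, stood in the promoters of Hmgcs1, Msmo1, Srebf2 and Apoe. These were 15.4% of the members listed, against 4.97% of all genes and 4.49% of the tested genes listed. The core lengthened by an A before and a C after it, each match of which contains a core, was in no member's promoter and in 0.27% of all genes. The E-box CACGTG was in the promoters of 6 of the 26 members listed (23.1%), in 8.09% of all genes and in 11.9% of the tested genes listed. The motif forms were settled after several had been looked at. A match is a description of these letters and not a bound site.

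The promoters of Hmgcs1 (chr13:119690101-119690400, plus strand), Mvd (chr8:122443373-122443672, minus strand), Srebf2 (chr15:82147019-82147318, plus strand) and Abca1 (chr4:53159846-53160145, minus strand) are printed 5′ to 3′ because these genes carry the responses below: an enzyme with a sterol regulatory element core, an enzyme without one, the regulator, and the transporter that moved the opposite way. Capitals mark CCAAT, TCACNCCA and CACGTG on either strand.
Hmgcs1: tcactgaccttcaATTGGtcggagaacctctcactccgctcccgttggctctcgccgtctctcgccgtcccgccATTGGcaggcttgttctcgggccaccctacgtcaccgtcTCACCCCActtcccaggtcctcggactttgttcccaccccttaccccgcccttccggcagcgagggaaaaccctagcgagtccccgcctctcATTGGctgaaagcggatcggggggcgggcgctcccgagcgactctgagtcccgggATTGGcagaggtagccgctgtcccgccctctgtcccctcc
Mvd: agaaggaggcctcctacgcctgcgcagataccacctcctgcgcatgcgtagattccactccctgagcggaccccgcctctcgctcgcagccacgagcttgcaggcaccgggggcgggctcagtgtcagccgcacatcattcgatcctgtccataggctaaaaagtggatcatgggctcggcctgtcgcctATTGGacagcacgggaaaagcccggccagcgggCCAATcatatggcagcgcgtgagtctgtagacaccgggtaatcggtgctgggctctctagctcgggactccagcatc
Srebf2: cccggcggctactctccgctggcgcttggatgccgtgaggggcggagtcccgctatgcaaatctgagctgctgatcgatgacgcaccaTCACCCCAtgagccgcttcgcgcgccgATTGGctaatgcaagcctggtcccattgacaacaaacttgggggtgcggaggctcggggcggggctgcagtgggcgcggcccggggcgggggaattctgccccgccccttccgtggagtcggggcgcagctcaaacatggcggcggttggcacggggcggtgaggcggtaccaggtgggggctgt
Abca1: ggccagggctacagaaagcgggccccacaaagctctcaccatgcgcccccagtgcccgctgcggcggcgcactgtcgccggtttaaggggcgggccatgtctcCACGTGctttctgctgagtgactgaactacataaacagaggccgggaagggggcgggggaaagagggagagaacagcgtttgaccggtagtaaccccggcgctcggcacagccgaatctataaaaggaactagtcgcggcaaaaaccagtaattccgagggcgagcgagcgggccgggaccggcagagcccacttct
Counted from the start, the Hmgcs1 core began at -137 and lay among 4 CCAAT boxes, read as ATTGG. In Srebf2 the core began at -162, and a CCAAT box followed at -135. Mvd held CCAAT boxes at -60 and -27 and no core. The Abca1 promoter held an E-box at -147 and neither of the other motifs.

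The question for the enzymes was whether their transcript levels differed in MPTP animals in any of the regions. Enzyme levels were lower in MPTP tissue over most of the pathway and in all regions, by small amounts. In each region 16 of the 17 enzymes had a negative log2 difference between MPTP and saline. The median enzyme difference was -0.17 in cortex (all 11741 genes, 0.038), -0.20 in striatum (all genes, -0.033) and -0.24 in midbrain (all genes, 0.027). Below zero in all 3 regions lay 14 of the 17 enzymes (82.4%), against 18.1% of all genes. The 3 exceptions were Msmo1 and Nsdhl, which act in sterol demethylation, and Ebp, a sterol isomerase, each above zero in 1 region. Regions taken from the same animals are not independent of each other.

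Averaged over the 17 enzymes, the log2 level on each array was 8.19, 8.38 and 8.28 in MPTP cortex, against 8.42, 8.38 and 8.47 in saline cortex. In striatum the enzyme mean was 7.78, 7.98 and 7.78 on MPTP arrays, against 7.95, 8.04 and 8.04 on saline arrays. In midbrain it was 8.31, 8.46 and 8.38 on MPTP arrays, against 8.67, 8.48 and 8.70 on saline arrays. Midbrain was thus without overlap by a narrow gap, the cortex groups were apart by even less, and in striatum MPTP replicate 2 lay inside the saline range. MPTP replicate 2 was the highest of its group in every region.

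**Figure D1:**
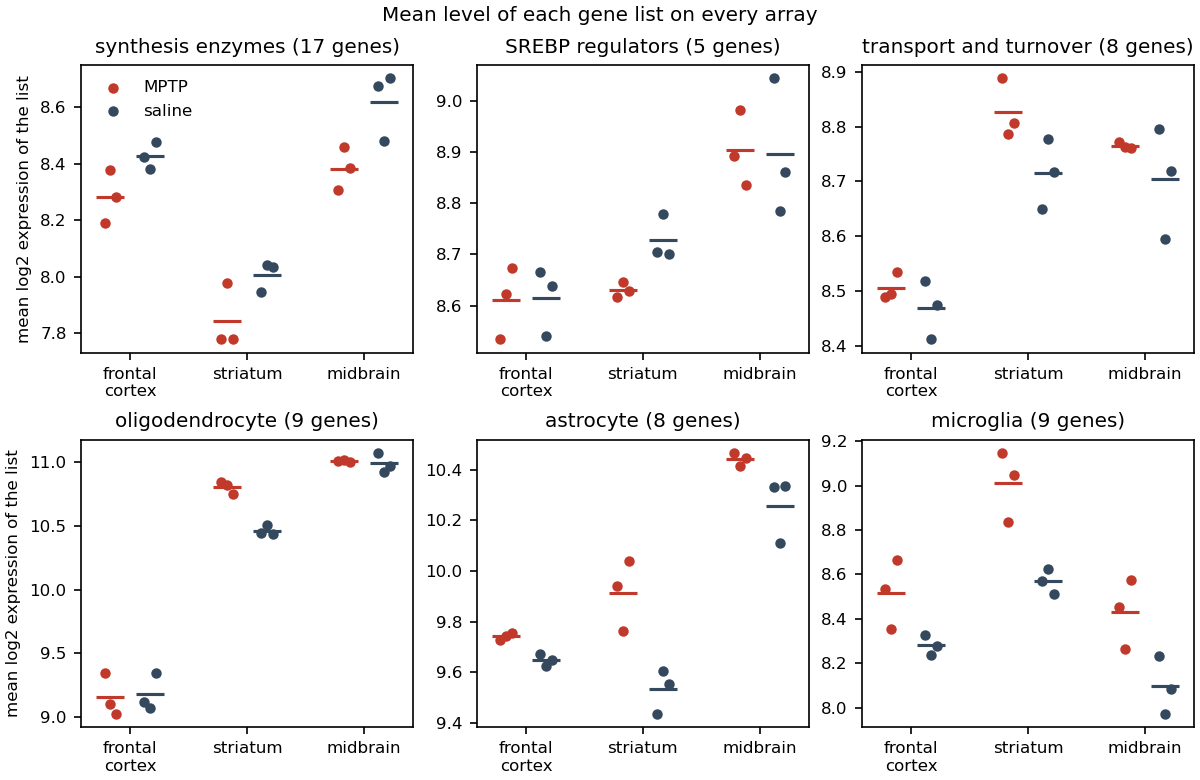
Mean log2 level of 6 gene lists on every array, with MPTP (red) left of saline (dark blue) in each region on the x axis and the group mean as a bar. The enzyme list is lower in MPTP tissue in all 3 regions, the microglial list is higher in all 3, and the oligodendrocyte list is apart in striatum and overlaps in the other regions.

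Single enzymes were called with limma at a Benjamini-Hochberg adjusted p under 0.05 over all genes. In midbrain 5 of the 29 members were called, 4 lower and 1 higher, where 2.54% of all genes were called, 0.383% lower and 2.15% higher. The 4 lower members were the enzymes Hmgcs1, Mvd, Lss and Dhcr7, and the higher one was Abca1. In whole tissue, fewer cells of a type and less RNA per cell cannot be told apart.

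Hmgcs1, which makes HMG-CoA at the head of the pathway, read 10.90, 11.00 and 10.98 on the MPTP midbrain arrays, against 11.32, 11.23 and 11.25 on the saline ones. Every MPTP array was below every saline array. The log2 difference was -0.31 ± 0.067 (SE), a 1.24-fold lower level, with an adjusted p of 0.0166 in limma.

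Mvd, which decarboxylates mevalonate diphosphate to the isoprenoid unit, read 6.16, 6.48 and 6.18 in MPTP midbrain, against 6.83, 6.65 and 7.13 in saline midbrain. The groups did not overlap, and the saline arrays were the more scattered. Mvd fell by 0.59 ± 0.14 (SE) on the log2 scale, 1.51-fold, the largest difference of any enzyme in any region, with an adjusted p of 0.0270 in limma.

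Lss, lanosterol synthase, closes squalene epoxide into the first sterol. Its level was 6.68, 6.89 and 6.84 on MPTP midbrain arrays, against 7.20, 7.48 and 7.23 on saline ones, with no overlap. The log2 difference was -0.50 ± 0.12 (SE), 1.41-fold lower, with an adjusted p of 0.0270 in limma.

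Dhcr7 catalyses the last reduction to cholesterol in 1 branch of the pathway. It read 7.60, 7.96 and 7.71 in MPTP midbrain, against 8.16, 8.05 and 8.37 in saline midbrain. MPTP replicate 2 came close to the saline arrays but did not reach them. The log2 difference was -0.43 ± 0.11 (SE), 1.35-fold lower, with an adjusted p of 0.0294 in limma.

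These 4 calls rested on few arrays. Without midbrain saline replicate 3, MPTP replicate 1 or MPTP replicate 3, none of them was called, and Lss was not called without saline replicate 2 either. The log2 difference with 1 array left out stayed between -0.33 and -0.28 for Hmgcs1, -0.70 and -0.46 for Mvd, -0.55 and -0.41 for Lss, and -0.54 and -0.34 for Dhcr7.

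**Figure D2:**
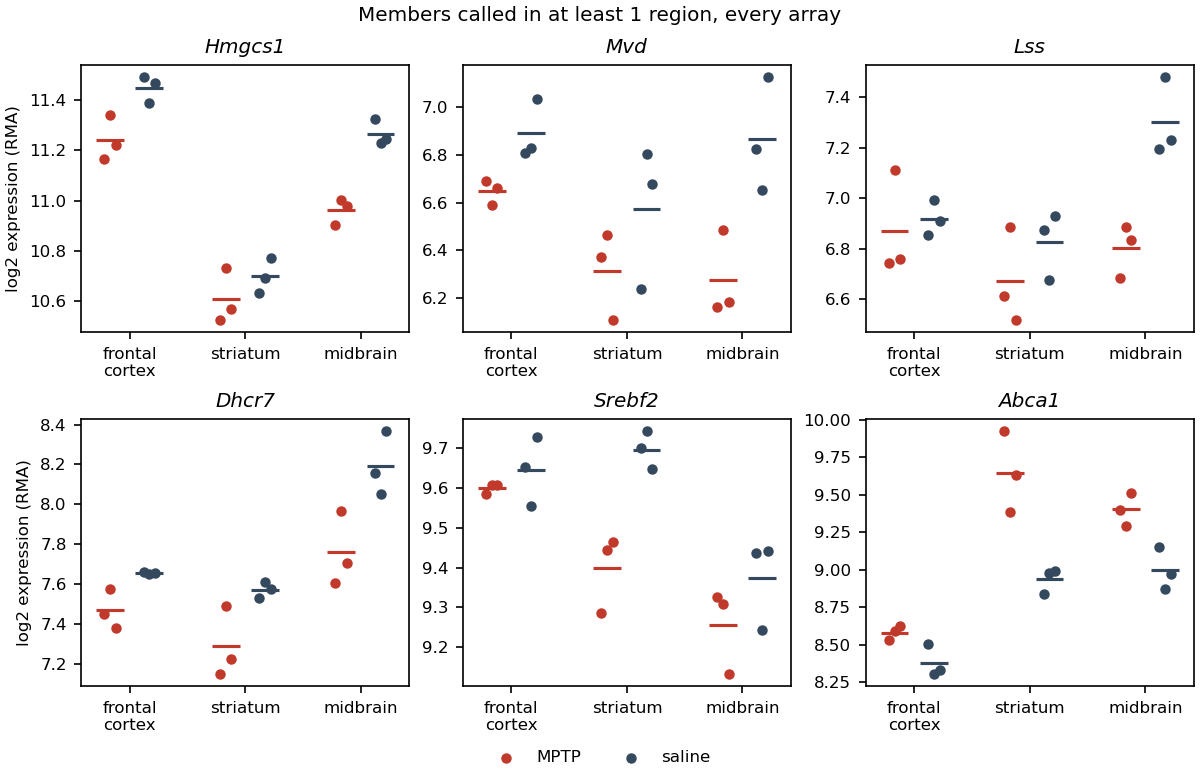
Log2 expression of the 6 members called in at least 1 region on each of the 18 arrays, with MPTP (red) left of saline (dark blue) per region and the group mean as a bar; each panel has its own y axis. In midbrain the MPTP arrays of Hmgcs1, Mvd, Lss and Dhcr7 lie below all saline arrays, and in striatum and midbrain those of Abca1 lie above them.

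At an unadjusted p under 0.05, 11 enzymes were lower in midbrain, where 4.55% of all genes were. The 7 of these that were not called had log2 differences of -0.24 for Mvk, -0.25 for Pmvk, -0.23 for Idi1, -0.19 for Fdft1, -0.24 for Cyp51, -0.31 for Tm7sf2 and -0.29 for Hsd17b7. Mvk and Pmvk phosphorylate mevalonate, Idi1 isomerises the isoprenoid unit, and Fdft1 joins farnesyl units into squalene. The last 3 act on lanosterol and the sterols made from it. The remaining enzymes lay between -0.17 and 0.091, with Msmo1, a methylsterol oxidase, the 1 above zero.

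In striatum 2 of the 29 members were called, 1 lower (Srebf2) and 1 higher (Abca1), where 2.1% of all genes were called, 0.809% lower and 1.29% higher. No enzyme was called there. At an unadjusted p under 0.05, 7 enzymes were lower, where 9.65% of all genes were. The log2 differences were -0.34 for Cyp51, -0.34 for Tm7sf2, -0.27 for Msmo1, -0.25 for Hsd17b7, -0.24 for Sc5d and -0.28 for Dhcr7, with adjusted p between 0.126 and 0.215 in limma. The other was Sqle, squalene epoxidase, at -0.23. The other 10 enzymes lay between -0.26 for Mvd and 0.083 for Nsdhl, with Fdps, which makes farnesyl diphosphate, at -0.034.

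In frontal cortex no member was called in limma, and 0.0681% of all genes were. At an unadjusted p under 0.05, 4 enzymes and no other member stood out, all lower, where 6.13% of all genes did and 1.18% were lower. They were Hmgcs1 at -0.21, Idi1 at -0.22, Fdft1 at -0.19 and Cyp51 at -0.27, with adjusted p of 0.507 to 0.774 in limma. In cortex 7 enzymes had MPTP arrays that all lay below the saline arrays, where 3.12% of all genes did, and 6 did in striatum, where 14.7% of all genes did. In midbrain 8 did, where 5.17% of all genes did.

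With the 3 regions averaged, 12 of the 29 members were called, 11 lower and 1 higher, where 9.04% of all genes were called, 2.43% lower and 6.61% higher. This test carried a random block for the animal, taken to be the arrays of the same treatment and number. The labels do not state that a number marks one animal, and the means per mouse below rest on the same assumption. The block had a correlation of 0.00558, so arrays of 1 animal were weighed as nearly independent. With 1 value per animal fewer than 12 members were called, as given under the processing. Of the 11 lower members 10 were enzymes, and all 17 enzymes lay below zero, with a median of -0.18 against 0.0096 for all genes. The 10 were Hmgcs1, Mvd, Idi1, Fdft1, Lss, Cyp51, Tm7sf2, Hsd17b7, Sc5d and Dhcr7. Pmvk at -0.17 and Sqle at -0.17 had adjusted p of 0.0650 and 0.0803 in limma, and the other 5 enzymes lay between -0.13 and -0.0016.

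Hmgcs1 averaged 10.94 ± 0.081 over the regions in MPTP mice and 11.14 ± 0.030 in saline mice (SD, n = 3 each). Its difference of -0.20 ± 0.039 (SE) had an adjusted p of 0.00220 in limma, the smallest among the enzymes. Mvd averaged 6.41 ± 0.098 in MPTP mice and 6.78 ± 0.16 in saline mice (SD, n = 3 each), a difference of -0.36 with an adjusted p of 0.00758 in limma. Dhcr7 averaged 7.50 ± 0.15 in MPTP mice and 7.81 ± 0.052 in saline mice (SD, n = 3 each), a difference of -0.30 with an adjusted p of 0.00353 in limma. For all 10 called enzymes the 3 MPTP means lay below the 3 saline means, by almost nothing for Idi1. The 10 were picked by being called lower, and the share of all genes with such a separation was not counted.

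Cyp51, the lanosterol demethylase, read 7.40, 7.78 and 7.81 in MPTP cortex, against 7.91, 7.86 and 8.04 in saline cortex. In striatum it read 6.95, 7.05 and 7.05 with MPTP, against 7.22, 7.43 and 7.41 with saline. In midbrain it read 7.73, 8.07 and 8.10 with MPTP, against 8.24, 8.06 and 8.31 with saline. Cyp51 was thus lower without overlap in cortex and striatum, and in midbrain saline replicate 2 fell among the MPTP arrays. Its mean difference was -0.28 with an adjusted p of 0.00917 in limma.

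Tm7sf2, a sterol reductase, read 7.46, 7.63 and 7.33 in MPTP cortex, against 7.63, 7.75 and 7.65 in saline cortex. In striatum it read 6.48, 6.94 and 6.23 with MPTP, against 6.87, 7.00 and 6.80 with saline. Midbrain gave 7.29, 7.27 and 7.15 with MPTP, against 7.73, 7.30 and 7.62 with saline. The spread in MPTP striatum was the widest of these groups and the arrays overlapped there, while in cortex and midbrain the groups nearly touched. Its mean difference was -0.29 with an adjusted p of 0.0260 in limma.

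Hsd17b7, which reduces the keto group left after demethylation, read 8.17, 8.14 and 8.18 in MPTP cortex, against 8.24, 8.30 and 8.39 in saline cortex. In striatum it read 7.62, 7.50 and 7.49 with MPTP, against 7.67, 7.83 and 7.85 with saline. In midbrain it read 7.77, 8.08 and 7.81 with MPTP, against 8.20, 7.94 and 8.38 with saline. The arrays of the 2 groups overlapped in midbrain and were apart in the other regions. Its mean difference was -0.23 with an adjusted p of 0.0180 in limma.

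Sc5d, the sterol desaturase before Dhcr7, read 8.59, 8.85 and 8.76 in MPTP cortex, against 8.88, 8.82 and 8.92 in saline cortex. In striatum it read 8.14, 8.19 and 8.31 with MPTP, against 8.33, 8.53 and 8.51 with saline. Midbrain gave 8.99, 9.13 and 9.03 with MPTP, against 9.34, 9.10 and 9.23 with saline. MPTP replicate 2 reached the saline range in cortex and midbrain. Its mean difference was -0.19 with an adjusted p of 0.0206 in limma.

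Idi1 read 7.81, 8.11 and 7.91 in MPTP cortex, against 8.14, 8.10 and 8.23 in saline cortex. In striatum it read 7.53, 7.78 and 7.62 with MPTP, against 7.67, 7.75 and 7.82 with saline. In midbrain it read 8.23, 8.42 and 8.39 with MPTP, against 8.64, 8.46 and 8.65 with saline. Only midbrain was free of overlap, and the mean difference was -0.18 with an adjusted p of 0.0345 in limma.

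Fdft1 read 9.47, 9.56 and 9.53 in MPTP cortex, against 9.67, 9.68 and 9.79 in saline cortex. In striatum it read 9.17, 9.12 and 9.08 with MPTP, against 9.12, 9.14 and 9.13 with saline. Midbrain gave 9.48, 9.53 and 9.48 with MPTP, against 9.71, 9.65 and 9.68 with saline. Cortex and midbrain were separated and striatum overlapped, for a mean difference of -0.13 with an adjusted p of 0.0279 in limma.

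Lss outside midbrain read 6.74, 7.11 and 6.76 in MPTP cortex, against 6.85, 6.99 and 6.91 in saline cortex, with overlap. In striatum Lss read 6.61, 6.89 and 6.52 with MPTP, against 6.87, 6.67 and 6.93 with saline, again with overlap. Its differences were -0.048 in cortex and -0.16 in striatum, and the mean over the regions was -0.23 with an adjusted p of 0.0365 in limma.

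The count of 12 fell to 3, Abca1, Dhcr7 and Hmgcs1, without striatum saline replicate 2. It was 7 without striatum saline replicate 1 and 7 without midbrain MPTP replicate 3. Abca1, Dhcr7 and Hmgcs1 were called with any 1 of the 18 arrays left out. Cyp51, Hsd17b7, Mvd and Sc5d lost the call only without striatum saline replicate 2. Fdft1 and Tm7sf2 lost it without 6 of the 18 in turn, Srebf2 without 8, Lss without 9 and Idi1 without 11.

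**Figure D3:**
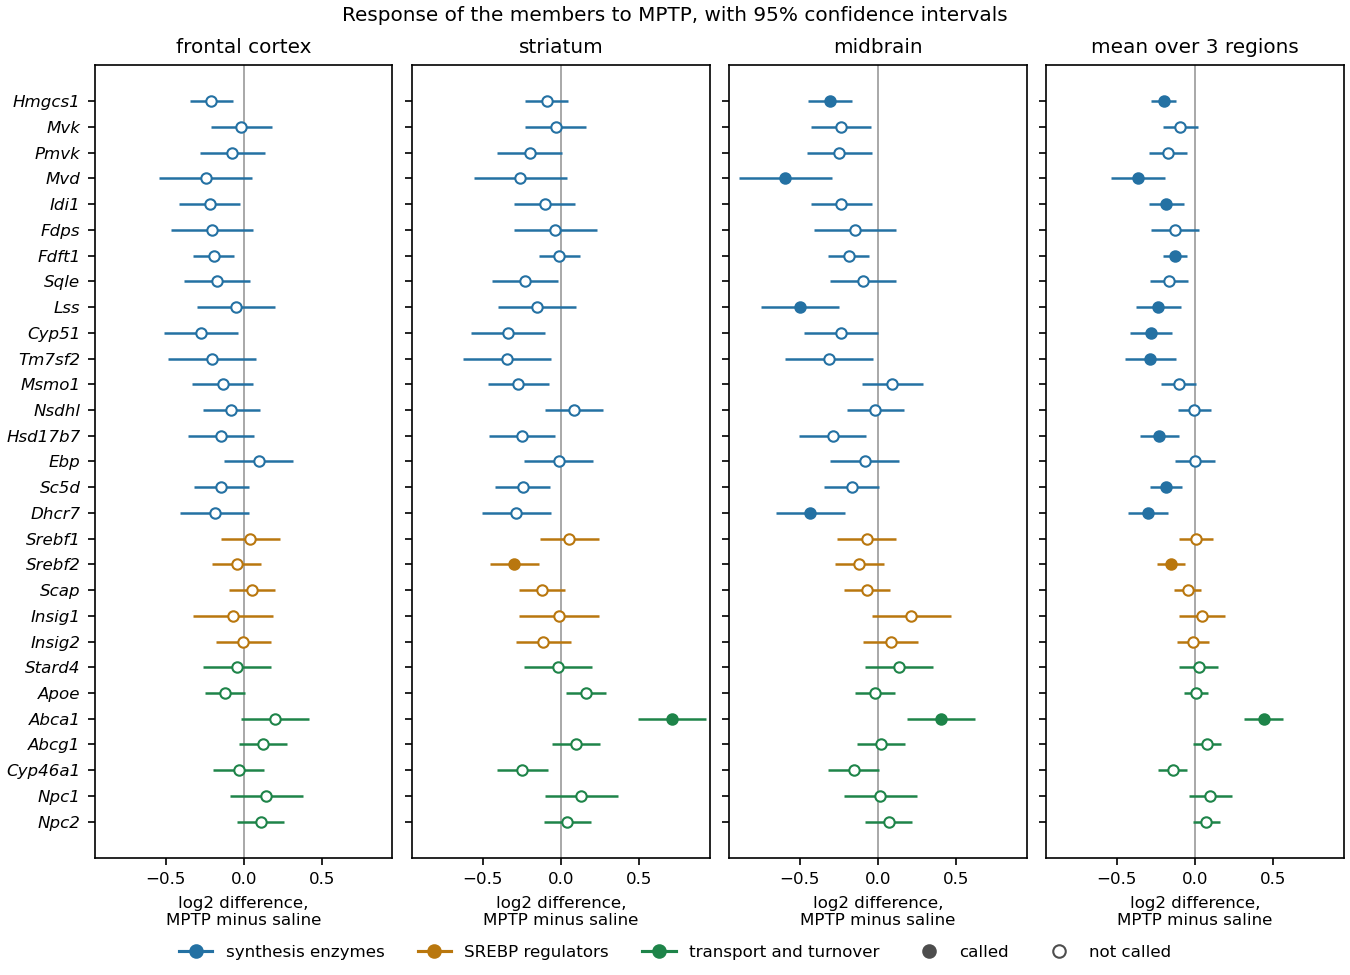
Log2 difference between MPTP and saline of the 29 tested members in each region and in the mean over the regions, with 95% confidence intervals; filled points passed the adjusted test. Enzymes (blue) lie left of zero nearly throughout, and Abca1 (green) lies right of zero in every panel.

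The regulators were asked about next, because SREBP activity sets enzyme transcription. Of the 5, Srebf2 alone was called, in striatum and in the mean over the regions. Srebf2, which encodes the SREBP form that drives cholesterol synthesis, read 9.29, 9.44 and 9.47 in MPTP striatum, against 9.70, 9.74 and 9.65 in saline striatum. The groups did not overlap, and MPTP replicate 1 was the lowest. Srebf2 fell by 0.30 ± 0.076 (SE) on the log2 scale, 1.23-fold, with an adjusted p of 0.0407 in limma. Whichever of the 6 striatum arrays was left out, MPTP or saline replicates 1, 2 or 3, the call was lost, with a difference between -0.33 and -0.24.

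In cortex Srebf2 read 9.58, 9.61 and 9.61 with MPTP, against 9.65, 9.56 and 9.73 with saline. In midbrain it read 9.33, 9.31 and 9.13 with MPTP, against 9.44, 9.24 and 9.44 with saline. Both regions overlapped, and the mean difference over the regions was -0.15 with an adjusted p of 0.0317 in limma. Srebf1, whose product mainly drives fatty acid genes, differed by 0.041 in cortex, 0.055 in striatum and -0.072 in midbrain. Scap lay between -0.12 and 0.052 and Insig2 between -0.11 and 0.080 over the regions. Insig1, itself an SREBP target, was at -0.067 in cortex, -0.013 in striatum and 0.21 in midbrain, with no call.

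Among the transport and turnover genes the one clear change was a rise of Abca1, which exports cholesterol to apolipoproteins. Abca1 read 9.92, 9.39 and 9.63 in MPTP striatum, against 8.84, 8.98 and 8.99 in saline striatum. Every MPTP array stood above every saline array, with MPTP replicate 1 the highest. Abca1 rose by 0.71 ± 0.10 (SE) on the log2 scale, 1.64-fold, with an adjusted p of 0.000572 in limma, and remained called with any striatum array left out.

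In midbrain Abca1 read 9.40, 9.29 and 9.51 with MPTP, against 9.15, 8.87 and 8.97 with saline. The groups were apart and the log2 difference was 0.40 ± 0.10 (SE), 1.32-fold higher, with an adjusted p of 0.0387 in limma. That call was lost without midbrain saline replicate 2, saline replicate 3, MPTP replicate 1 or MPTP replicate 3, at differences of 0.34 to 0.40. In cortex Abca1 read 8.53, 8.59 and 8.62 with MPTP, against 8.50, 8.31 and 8.33 with saline, a difference of 0.20 with an adjusted p of 0.828 in limma. Over the regions the mean difference of Abca1 was 0.44 with an adjusted p of 0.000241 in limma.

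Cyp46a1, the cholesterol hydroxylase of neurons, read 10.50, 10.48 and 10.44 in MPTP striatum, against 10.74, 10.79 and 10.63 in saline striatum. These groups did not overlap, but the difference of -0.25 had an adjusted p of 0.107 in limma. Its mean over the regions was -0.14, with an adjusted p of 0.0501 in limma, just outside the threshold. Cyp46a1 differed by -0.033 in cortex and -0.16 in midbrain.

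Apoe, the main lipid carrier of the brain, read 12.36, 12.15 and 12.30 in MPTP striatum, against 12.07, 12.16 and 12.10 in saline striatum. MPTP replicate 2 lay within the saline range, and the difference of 0.16 had an adjusted p of 0.183 in limma. In cortex Apoe read 12.02, 11.90 and 12.04 with MPTP, against 12.09, 12.10 and 12.13 with saline, a difference of -0.12 in the opposite direction that was not called. In midbrain the Apoe difference was -0.022.

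Abcg1, a second sterol exporter, was above zero in every region, by 0.12 in cortex, 0.094 in striatum and 0.018 in midbrain, with no call. The lysosomal export proteins Npc1 and Npc2 were also above zero in every region, by 0.015 to 0.15 and by 0.041 to 0.11. Stard4, a soluble sterol carrier and SREBP target, lay between -0.045 and 0.14 on the probe set used. The remaining 2 Stard4 probe sets that passed the filter read -0.31 and -0.29 in striatum, 0.042 and -0.27 in cortex, and -0.088 and -0.22 in midbrain. Nr1h3, below the filter value, read 4.35 to 4.45 in MPTP cortex and 4.41 to 4.54 in saline cortex. It read 4.58 to 4.78 in MPTP striatum and 4.58 to 4.77 in saline striatum, and 4.48 to 4.61 in MPTP midbrain and 4.38 to 4.61 in saline midbrain.

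Whether the response differed between regions was tested as the difference of the MPTP responses. No member passed in limma. Between striatum and cortex 0.0596% of all genes passed, and at an unadjusted p under 0.05 3 members and 7.75% of all genes differed. Between midbrain and cortex 0% of all genes passed, and unadjusted 1 member and 4.97% of all genes differed. Between midbrain and striatum 0.0681% of all genes passed, and unadjusted 4 members and 5.89% of all genes differed. The Abca1 response was larger in striatum than in cortex by 0.51 (95% interval 0.20 to 0.82, adjusted p = 0.369 in limma). The Lss response in midbrain differed from that in cortex by -0.45 (95% interval -0.80 to -0.10, adjusted p = 0.829 in limma). Srebf2 and Apoe differed by -0.25 and 0.28 between striatum and cortex. Between midbrain and striatum, Msmo1 differed by 0.36, Hmgcs1 by -0.22, Apoe by -0.18 and Abca1 by -0.31. The calls in 1 region and not in another are therefore not shown to differ between regions.

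Genes around the pathway showed few calls. They were taken from lists chosen with earlier results of these data known. Of 17 tested genes for other sterol uptake, efflux and conversion, 2 were called higher and 1 lower in striatum, where 1.29% of all genes were called higher and 0.809% lower. In cortex and midbrain none was called. At an unadjusted p under 0.05, 1 was higher and 1 lower in cortex, where 4.95% of all genes were higher and 1.18% lower. In midbrain 2 were higher at that threshold, where 12.1% of all genes were. Clu, an apolipoprotein of astrocytes, averaged 12.83 ± 0.077 in MPTP striatum and 12.30 ± 0.0024 in saline striatum (SD, n = 3 each), a difference of 0.53 with an adjusted p of 0.000170 in limma. Apod, another apolipoprotein, averaged 11.70 ± 0.29 in MPTP striatum and 11.20 ± 0.036 in saline striatum, and Lrp8, a receptor for apolipoprotein E and reelin, averaged 6.60 ± 0.083 in MPTP striatum and 7.01 ± 0.16 in saline striatum (SD, n = 3 each). Apod rose by 0.50 and Lrp8 fell by 0.42, with adjusted p of 0.0332 and 0.0242 in limma. Apod lost its call with 5 of the 6 striatum arrays left out in turn and Lrp8 with 4, including MPTP replicate 1 and saline replicates 2 and 3 for both.

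In the mean over the regions Clu (0.23), Apod (0.25), Mylip (0.16) and Vldlr (0.15) were called higher and none lower, with adjusted p of 0.00138 to 0.0495 in limma, where 6.61% of all genes were called higher. With 1 of the 18 arrays left out in turn, Clu was called every time, Apod lost its call 9 times and Mylip and Vldlr 12 times each. Mylip encodes a ligase that marks lipoprotein receptors for degradation, and Vldlr is 1 of those receptors. The smallest p-values of these lists in cortex were for Vldlr at 0.26 and for the bile acid enzyme Cyp27a1 at -0.33, and in midbrain for Mylip at 0.22 and the fatty acid desaturase Scd2 at 0.16. None of these 4 was called in its region. Of 11 fatty acid synthesis genes, none was called in any region or in the mean, and their medians were 0.020 in cortex, -0.056 in striatum and 0.013 in midbrain. At an unadjusted p under 0.05, 1 was higher and 1 lower in striatum, where 6.63% of all genes were higher and 9.65% lower. In midbrain 1 was higher and 2 lower, where 12.1% of all genes were higher and 4.55% lower. No call was made among 5 genes of SREBP processing or 5 other synthesis and isoprenoid genes. At an unadjusted p under 0.05, 1 of the first group was higher in midbrain, where 12.1% of all genes were. In striatum 1 of the second group was higher at that threshold, where 6.63% of all genes were.

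Markers of the cells in the tissue moved too. In striatum 5 of 9 oligodendrocyte, 4 of 8 astrocyte and 5 of 9 microglial markers were called higher in MPTP mice and none lower, where 1.29% of all genes were called higher. The mean of the oligodendrocyte list was 10.75 to 10.85 on MPTP striatum arrays and 10.44 to 10.51 on saline ones, with no overlap. The astrocyte list averaged 9.76 to 10.04 on MPTP and 9.44 to 9.61 on saline striatum arrays, and the microglial list 8.84 to 9.15 on MPTP and 8.51 to 8.63 on saline striatum arrays. In midbrain 1 oligodendrocyte marker was called lower, and 2 astrocyte markers and 1 microglial marker higher, where 0.383% of all genes were called lower and 2.15% higher. The midbrain oligodendrocyte list was 11.00 to 11.02 with MPTP and 10.92 to 11.08 with saline. No marker of these 3 lists was called in cortex, where at an unadjusted p under 0.05 6 microglial and 1 astrocyte markers were higher and 1 oligodendrocyte marker lower, against 4.95% of all genes higher and 1.18% lower. In the mean over the regions 7 microglial, 4 astrocyte and 2 oligodendrocyte markers were called higher and 1 oligodendrocyte marker lower, where 6.61% of all genes were called higher and 2.43% lower. Of 6 general neuron markers none was called in any region, with medians between -0.043 and -0.0019. At an unadjusted p under 0.05, 2 of them were lower in striatum, where 9.65% of all genes were, and 2 higher in midbrain, where 12.1% of all genes were. The 4 tested dopaminergic markers were all below zero in midbrain, with a median of -0.30 and none called. At an unadjusted p under 0.05, 2 of them were lower there, where 4.55% of all genes were. The mean of the 6 dopaminergic markers on the array was 6.99 to 7.04 on MPTP midbrain arrays and 7.13 to 7.42 on saline midbrain arrays. Of 5 endothelial markers 1 was called higher in striatum and 2 in the mean over the regions. The 1 tested choroid plexus marker differed by -1.01 in cortex, -1.79 in striatum and -0.85 in midbrain, and was called lower in the mean, at -1.22. The cortical glutamatergic markers in striatum averaged 4.35 to 5.93 on MPTP arrays and 5.70 to 6.41 on saline arrays, with MPTP replicate 1 the lowest. The part of cell composition in the enzyme, Srebf2 and Abca1 differences was not tested.

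The interquartile range of an array's log2 values, which ran from 3.37 to 3.65, was lowest on saline replicate 2 in cortex and midbrain and saline replicate 1 in striatum. Enzyme means were lowest of their saline group on those same 3 arrays. This was not particular to the enzymes. The transport and turnover, fatty acid synthesis, astrocyte and general neuron lists were lowest on them too. The SREBP regulator, oligodendrocyte and microglial lists were instead lowest on saline replicate 3 in striatum. Without the arrays of lowest interquartile range the counts of called members were 0 in cortex, 2 in striatum, 4 in midbrain and 13 in the mean over the regions.

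More members were called between saline regions than between treatments, and the same held for all genes. Of all genes 44% to 58.2% were called between saline regions, against 0.0681% to 2.54% between treatments in a region. The labelled regions carried their markers. In saline mice the 5 striatal spiny neuron markers were all called higher in striatum than in cortex, with a median of 4.84. The 4 tested dopaminergic markers were all called higher in midbrain than in cortex, with a median of 3.97. The 4 cortical glutamatergic markers were all called lower in midbrain than in cortex, with a median of -4.12.

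The enzymes were lowest in striatum. In saline striatum minus saline cortex, 19 members were called, 7 higher and 12 lower, where 44% of all genes were called, 20.5% higher and 23.5% lower. Of the 17 enzymes 11 were called lower and none higher, with a median of -0.42 against -0.0027 for all genes. Sqle averaged 8.06 ± 0.054 in striatum and 8.91 ± 0.073 in cortex, Tm7sf2 6.89 ± 0.10 in striatum and 7.67 ± 0.062 in cortex, and Hmgcs1 10.70 ± 0.070 in striatum and 11.45 ± 0.054 in cortex (SD, n = 3 each). These 3 were the largest falls, of 0.85, 0.78 and 0.75 on the log2 scale, with adjusted p of 2.1e-07, 4.53e-05 and 1.62e-09 in limma. The largest rises in striatum were in other groups, at 0.60 for Npc2, 0.60 for Srebf1 and 0.56 for Abca1, and 5 of 7 transport and turnover genes were called higher.

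In saline midbrain minus saline striatum, 27 members were called, 23 higher and 4 lower, where 58.2% of all genes were called, 33.4% higher and 24.8% lower. All 17 enzymes lay above zero with a median of 0.58, against 0.047 for all genes, and 16 were called higher. The exception was Mvd at 0.29, with an adjusted p of 0.0815 in limma. Sqle averaged 9.06 ± 0.12 in midbrain and 8.06 ± 0.054 in striatum, a 2-fold difference, and Cyp51 averaged 8.20 ± 0.13 in midbrain and 7.35 ± 0.11 in striatum (SD, n = 3 each). Stard4 was higher in midbrain by 0.85. The lower members with the largest differences were Cyp46a1 at -1.64, Abcg1 at -0.34 and Srebf2 at -0.32, so Srebf2 was lower in the region where the enzymes were higher.

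In saline midbrain minus saline cortex, 19 members were called, 16 higher and 3 lower, where 51.3% of all genes were called, 27.8% higher and 23.6% lower. Among the enzymes 8 were called higher and 1 lower, with a median of 0.26 against 0.022 for all genes. The lower one was Hmgcs1 at -0.18, which lost its call without cortex saline replicate 1 or 3 or midbrain saline replicate 2 or 3. Srebf1, Npc2 and Npc1 were the largest rises, at 1.09, 1.04 and 0.86. Srebf1 averaged 8.85 ± 0.16 in midbrain and 7.76 ± 0.091 in cortex (SD, n = 3 each). The other lower members were Cyp46a1 at -1.22 and Srebf2 at -0.27. The saline contrasts were fitted without a block. With the replicate number as a fixed block, 19 members were again called between midbrain and cortex, 18 of them shared, with Cyp51 gained and Apoe lost.

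Striatum was the lowest region for 16 of the 17 enzymes, against 4253 of all 11741 genes. The order midbrain, cortex, striatum from high to low held for 11 enzymes (64.7%), against 22.3% of all genes. Midbrain and cortex did not differ by the test for 8 of the 17. The enzyme order was not that of the oligodendrocyte markers, which averaged 10.92 to 11.08 in saline midbrain, 10.44 to 10.51 in saline striatum and 9.07 to 9.35 in saline cortex. In saline mice the astrocyte list averaged 10.11 to 10.33 in midbrain, 9.62 to 9.67 in cortex and 9.44 to 9.61 in striatum. This was the order of most enzymes, with cortex and striatum narrowly apart. The general neuron list was highest in saline cortex and the microglial list in saline striatum. The part of cell composition in the enzyme order was not tested. Cyp46a1 had the opposite order to most enzymes, with 9.08 ± 0.19 in midbrain, 10.72 ± 0.077 in striatum and 10.30 ± 0.0082 in cortex (SD, n = 3 each). Striatum exceeded cortex in Cyp46a1 by 0.42, with an adjusted p of 0.000112 in limma.

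**Figure D4:**
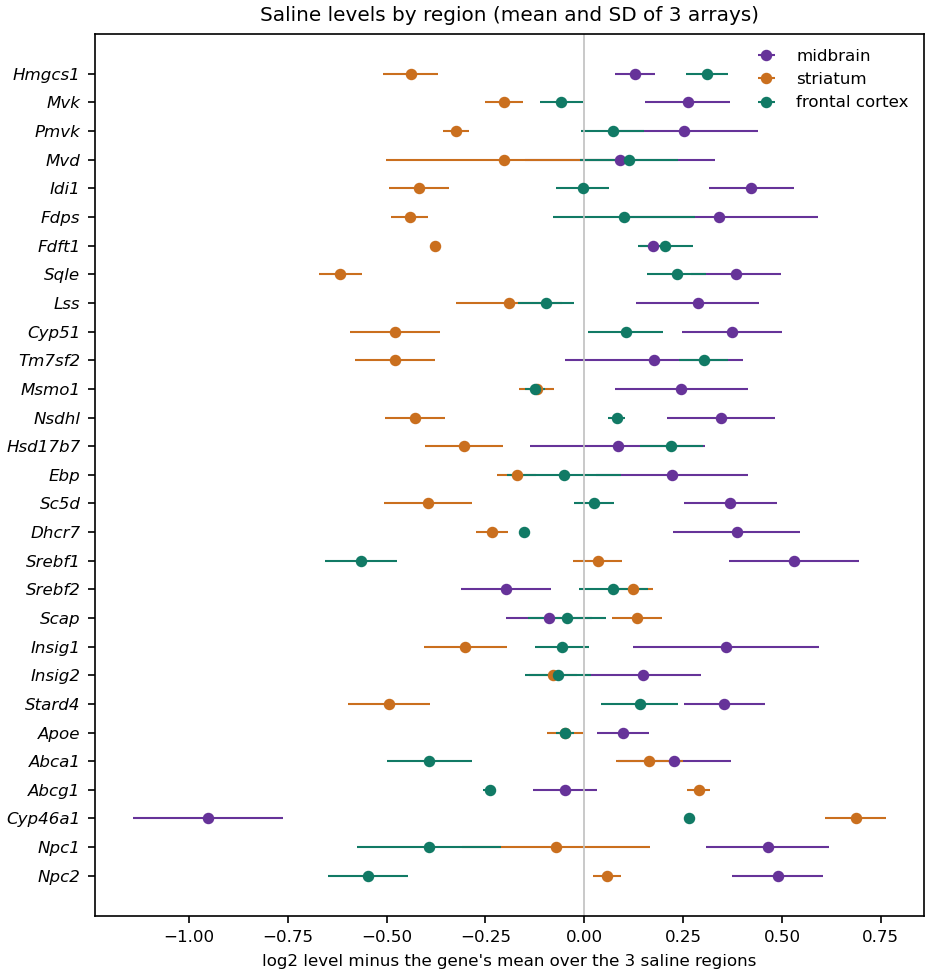
Level of each tested member in saline midbrain (purple), striatum (orange) and frontal cortex (green) as the log2 distance from the gene's own mean over the 3 regions, with the SD of 3 arrays. Striatum is leftmost for 16 of the 17 enzymes at the top, and Cyp46a1 near the bottom spans the widest range, with midbrain lowest.

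Several members had more than 1 probe set, and these did not always move together. For 9 enzymes, 13 other probe sets reached the filter value, and of these 12 lay below zero in cortex, 8 in striatum, 10 in midbrain and 10 in the mean over the regions. In midbrain the 3 other Hmgcs1 probe sets gave log2 differences of 0.14, 0.017 and -0.37, against -0.31 for the one used, and in striatum 0.33, 0.14 and -0.17, against -0.091. In cortex all 3 lay below zero, at -0.25, -0.28 and -0.30. The other Mvd probe set lay below zero in every region, at -0.24 in cortex, -0.45 in striatum and -0.33 in midbrain. The other Lss probe set gave -0.038 in midbrain, so the lower midbrain level of Lss was seen on 1 of 2 probe sets.

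The other Idi1 probe set lay above zero by 0.52 in midbrain and 0.51 in striatum and lay at -0.28 in cortex, with 0.25 in the mean over the regions, the opposite sign to the one used. The second Srebf2 probe set gave -0.17 in striatum and -0.13 in the mean, in the same direction. The 2 other Abca1 probe sets gave 0.52 and 0.90 in striatum, beside the 0.71 used, but -0.052 and -0.10 in midbrain, beside 0.40. A higher Abca1 level was thus read by all 3 probe sets in striatum and by 1 of 3 in midbrain. Dhcr7 and Tm7sf2 had 1 probe set each, and both other Sc5d probe sets lay below zero in every region. With all probe sets of a gene averaged, no member was called in midbrain, Abca1 alone was called in striatum, and 5 were called in the mean over the regions: Abca1, Dhcr7, Mvd, Sc5d and Tm7sf2.

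**Figure D5:**
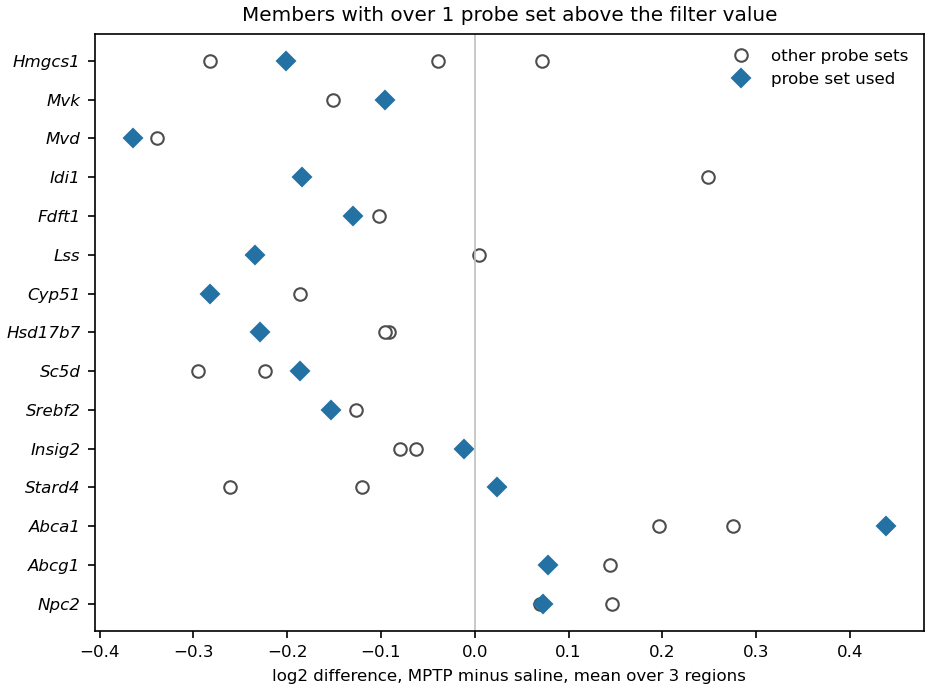
Log2 difference between MPTP and saline, averaged over the 3 regions, for the probe set used (blue diamonds) and the other probe sets above the filter value (open circles) of 15 members. Most enzymes have all probe sets left of zero, with Idi1, 1 probe set of Hmgcs1 and the second one of Lss on the right.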

How the data were processed

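Total RNA was hybridised to Affymetrix mouse arrays, 1 per sample. The authors deposited log2 values, 1 per probe set and array; RMA is the method in the submitters' processing notes. RMA brings the probes of all arrays to one distribution, so a shift of all genes would not be visible. The RMA version is not given in the sources used here. All 18 arrays and 45101 probe sets were used, of which 34958 named 1 gene. A gene was tested where its mean in some region was no lower than 5.18, the median over all probe sets.

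Limma 3.58.1 in R 4.3.3 estimated the 6 group means in 1 model of all arrays, with an intensity trend. P-values were adjusted by Benjamini-Hochberg over 11741 genes, and an adjusted p under 0.05 was called. The 12 residual degrees of freedom became 23.2 after moderation. The animal block of the mean over regions had a correlation of 0.00558, although the labels do not state that a number marks one animal. Saline regions and differences of responses were contrasts of the same fit. The script was tested on simulated data.

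Arrays of the same number and treatment deviated together (correlation above 0.1) in 11 of 18 pairs of regions, among them all 3 pairs of saline midbrain and cortex (0.225 to 0.342). Saline striatum replicates 1 and 2 deviated the opposite way to the same numbers in both other regions, with correlations from -0.133 to -0.233. Promoter letters from RefSeq were searched on both strands. Named were members called, or with an unadjusted p under 0.05; the 3 largest saline differences each way; and, in other lists, called genes and the 2 smallest p per region. Members and lists were chosen with earlier results of these data known. Alternatives covered filter, probe sets, normalization, variance, covariate, blocks and single arrays.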

Additional observations from a re-analysis of the deposited data

How the results depend on the processing

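The counts of called members moved by more than 1.5 times under some settings. In striatum the count of 2 became 1 without a filter, 1 with all probe sets averaged, 1 without the intensity trend and 5 after quantile normalization a second time. In midbrain the count of 5 became 3 with a filter at the 75th percentile, 0 with all probe sets averaged, 10 after a second quantile normalization, 3 without the trend and 3 with the arrays of the region alone. In the mean over the regions 12 became 5 with all probe sets averaged. For the response in striatum minus cortex 0 became 1, Abca1, with the array interquartile range as a covariate. With 1 array left out the count ran from 0 to 0 in cortex, 1 to 2 in striatum, 0 to 5 in midbrain and 3 to 15 in the mean. It ran from 17 to 19 for saline striatum minus cortex, 13 to 20 for midbrain minus cortex and 25 to 28 for midbrain minus striatum. Averaging the probe sets turned the sign of Idi1 in midbrain (0.14) and in the mean (0.032) and of Scd2 in midbrain (-0.024). The cause of these moves was not tested, beyond the probe sets and arrays each setting removes or adds. Same-numbered MPTP and saline arrays deviated together, with a correlation above 0.1, in 3 of 9 pairs, so the numbers were not taken to pair them. With a replicate block by number, the counts were 0 in cortex, 2 in striatum, 5 in midbrain and 15 in the mean, and the 12 calls of the mean were among the 15. The saline contrasts gave 18 (striatum minus cortex), 19 (midbrain minus cortex) and 26 (midbrain minus striatum) with that block, and 19, 19 and 27 with the animal as a random block, as without one. Without the animal block the mean gave 13, and with 1 value per animal 8. Among single genes, 1453 results kept direction and side of the threshold, 164 lost a call, 38 gained one and 3 changed sign. Leaving out the saline arrays of lowest interquartile range was chosen after the data were seen. Dim probe sets compress differences, and 3 arrays per group limit what could be called.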

Other observations

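Fatty acid synthesis genes, which the related factor SREBP-1 drives, also had a regional pattern in saline mice. All 11 were called higher in midbrain than in cortex, with a median log2 difference of 0.40, and 10 of 11 were called higher in midbrain than in striatum, with a median of 0.60. Of all genes 27.8% and 33.4% were called higher in these contrasts. Between striatum and cortex 3 were called higher and 3 lower, where 20.5% of all genes were called higher and 23.5% lower. The median was 0.031, so the low striatal level of the cholesterol enzymes had no counterpart in the median of this list.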
